A study of Rattus norvegicus with 12 samples.

Results

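The Hox genes of the A, B, C and D clusters were read as a code of cord level in 12 pools of RNA from rat thoracic spinal cord. The rats were female, Sprague-Dawley and 10 weeks old. Members were all array symbols made of Hox, a cluster letter and a number. They came to 21 of the 12978 genes named on the array, with 1 probe each, out of 39 such genes in RefSeq. Each array held 1 pool of RNA from rats of the same genotype, surgery and time. The 6 G93A pools came from rats with the G93A mutation of SOD1, and the 6 WT pools came from their wild-type littermates. In each genotype, pools were taken 30 min, 4 h, 24 h and 7 d after a mild compression injury, and 30 min and 4 h after a sham operation. The number of rats per pool, the promoter of the mutant gene and the vertebral level of the cut are not given in the sources used here. With 1 pool per condition and genotype, every p-value rests on how far single pools scatter, and that scatter may be technical.

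Hox genes encode homeodomain transcription factors and lie in clusters whose order matches the order of their expression along the body axis. Members of low paralog number are first expressed in the hindbrain and neck, and members of high number in the trunk, lumbar and tail levels. In the spinal cord this code sets the identity of motor neurons: Hox9 proteins mark the thoracic level and Hox10 proteins the lumbar level. The level index used below takes tissue cut further back along the cord to hold more of the high-numbered members relative to the low-numbered ones. This premise was not tested, and low-numbered members such as Hoxb2 were detected in all pools of this thoracic tissue. A fall of low-numbered members for any other reason would also raise the index. In pooled tissue, fewer cells of a type and less RNA per cell cannot be told apart.

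The series carries 2 limits that touch every value. The deposited probe identifiers did not stand beside their own values, and they were sorted before joining. Within 2000 rows on either side of the Hoxd10 probe, 50 probes of genes that most cells use were then detected on 88.7% of arrays on average. In the same stretch, 50 probes of receptors, keratins and other genes foreign to the cord were detected on 7.17%. After a shift of the identifiers by 1 row the shares were 51.5% and 39% in one direction and 43.3% and 56.8% in the other. Second, the WT pool taken 30 min after injury detected 41.3% of the probes, against 49.6% to 53.8% in the other 11 pools. The rat Sod1 probe, which is not a probe for the mutant transgene, lay between 5407 and 7440 in G93A pools and between 5259 and 7949 in WT pools, so the ranges overlapped.

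The Hoxd10 result below is the largest of the set, so its promoter is shown beside those of Hoxd12 and Hoxd13, neighbours in the same cluster that were silent or nearly so. The table of RefSeq promoters used here, on build GRCr8, has entries for 11 of the 21 members, and each window runs from 250 bases before the annotated start to 50 bases after it. Both strands were searched for the CCAAT box, for the E-box core CACGTG and for the TATA box as TATAAA, and the capitals mark every match. The 3 windows lie on the plus strand at chr3:80001697-80001996 for Hoxd10, chr3:79984856-79985155 for Hoxd12 and chr3:79977827-79978126 for Hoxd13.
Hoxd10: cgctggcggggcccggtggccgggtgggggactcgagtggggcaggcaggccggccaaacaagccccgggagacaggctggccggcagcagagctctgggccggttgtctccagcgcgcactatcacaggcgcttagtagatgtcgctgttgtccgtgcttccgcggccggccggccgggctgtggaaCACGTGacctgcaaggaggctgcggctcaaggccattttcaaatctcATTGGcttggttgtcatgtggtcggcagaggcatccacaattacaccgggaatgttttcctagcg
Hoxd12: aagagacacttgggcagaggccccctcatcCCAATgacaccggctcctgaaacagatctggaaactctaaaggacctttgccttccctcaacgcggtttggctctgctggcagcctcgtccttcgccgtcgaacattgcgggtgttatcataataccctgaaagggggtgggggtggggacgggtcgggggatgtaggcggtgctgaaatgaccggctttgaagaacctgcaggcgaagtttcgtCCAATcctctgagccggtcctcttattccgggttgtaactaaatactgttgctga
Hoxd13: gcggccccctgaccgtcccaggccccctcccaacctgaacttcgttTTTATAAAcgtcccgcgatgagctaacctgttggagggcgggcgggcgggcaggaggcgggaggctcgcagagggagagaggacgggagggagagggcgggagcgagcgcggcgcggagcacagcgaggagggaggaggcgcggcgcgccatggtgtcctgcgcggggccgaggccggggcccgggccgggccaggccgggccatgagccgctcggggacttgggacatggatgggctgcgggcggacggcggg
The Hoxd10 window holds CACGTG 62 bases before the start and CCAAT on the other strand 15 bases before it. These matches are not particular to Hoxd10. The windows of Hoxd1, Hoxd3 and Hoxa7, not printed here, also hold CACGTG. That of Hoxd1, a member not detected on any array, holds CCAAT on the other strand too. Of all 33469 promoters, 6.42% hold CACGTG, 37.5% hold CCAAT and 14.2% hold TATAAA on either strand. The windows hold 24 CG pairs for Hoxd10, 16 for Hoxd12 and 36 for Hoxd13, against a median of 7 over all promoters. In Hoxd13 the capitals cover 2 overlapping matches of TATAAA on opposite strands. A match describes these letters alone.

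Members of the middle paralog groups were detected most widely. Of the 21 members, 15 passed the filter of a detection p under 0.05 on at least 2 arrays, and 11 were detected on all 12 arrays. The same filter was passed by 13793 of all 22226 probes. Of 9 members of paralog groups 3 to 8, 7 were detected on all arrays. Of 5 members of groups 11 to 13, 0 were, and Hoxa13, Hoxb13 and Hoxd12 were detected on no array. Between 12 and 15 members were detected on each array.

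**Figure D1:**
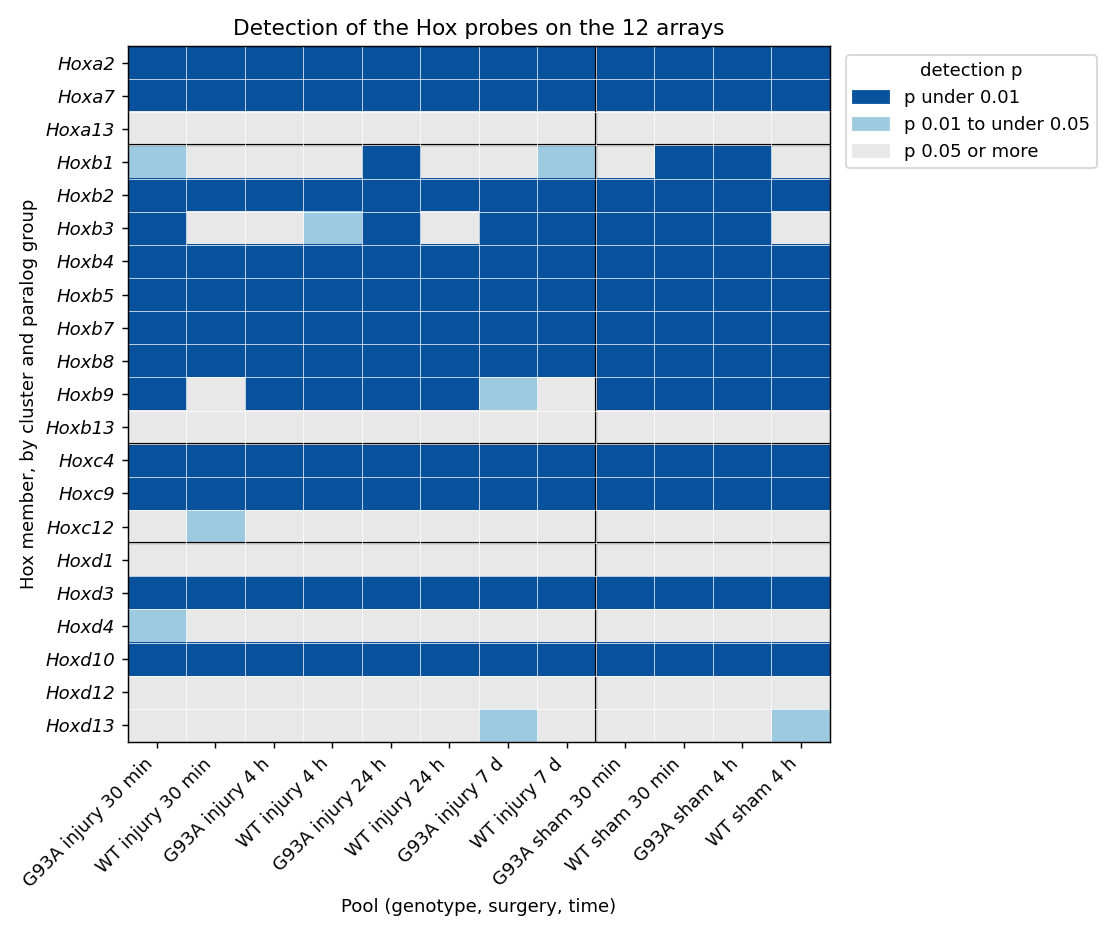
Detection p of each of the 21 Hox probes (rows, by cluster and paralog group) in each of the 12 pools (columns, injured pools left of the black line, sham pools right of it). Dark squares mark p under 0.01, pale blue ones p from 0.01 to under 0.05 and grey ones the rest; 11 rows are dark across all 12 pools.

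Among the hindbrain members, Hoxa2, which patterns the second branchial arch, was detected on 12 arrays with signals from 40.0 to 95.3 and a median of 72.3. Hoxb2, which acts in the hindbrain and facial motor neurons, was detected on 12 arrays with signals from 337 to 523. Hoxb1, which sets the fourth rhombomere, was near background, with signals from 5.05 to 24.6 and detection on 5 arrays. Hoxd1 was detected on 0 arrays.

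The neck and upper trunk members included 7 that were detected on all arrays. Hoxb8, which acts in dorsal horn neurons and in blood precursors, was detected on 12 arrays with a median signal of 3628. Hoxb7 had signals from 699.6 to 1271 and Hoxb5 from 478 to 1298, each on 12 arrays. Hoxa7 lay between 524 and 2847 and Hoxc4 between 90.9 and 267. Hoxb4 lay between 36.8 and 87.2 and Hoxd3 between 37.4 and 77.6. Hoxb3 was detected on 8 arrays with a median signal of 14.6, and Hoxd4 on 1 array. Signals of different probes cannot be set against each other, so these levels give no rank of the genes.

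The members of the thoracic level, paralog group 9, were dim. Hoxc9, which keeps thoracic motor neurons from a limb fate, was detected on 12 arrays. Its signal was 18.4 to 35.9 in 11 pools and 60.9 in the WT pool taken 30 min after injury. Hoxb9 was detected on 10 arrays, with a highest signal of 56.8, and was missed in the WT pools 30 min and 7 d after injury. Beyond group 10, Hoxd13 passed on 2 arrays at 0.05 and on 0 at 0.01, and Hoxc12 passed on 1.

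The label of cord tissue was also set against genes of the brain. Of 16 rostral neural tube markers, 12 were on the array and 6 passed the filter. Egr2, which patterns the hindbrain and also acts in Schwann cells, was detected on 12 arrays with signals from 692.5 to 2273. Pax6, which also patterns the ventral spinal cord, was detected on 12 arrays with signals from 18.1 to 64.2. Gbx2 was detected on 7 arrays, Phox2a on 6, Six3 on 4 and Emx1 on 3, each with signals of at most 25.8. Dmbx1 and Emx2 were detected on 1 array each, and Otx1, Otx2, En2 and Fgf17 on 0. None of the 6 passed the test in any of the 7 planned comparisons or in the added one.

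Hoxd10, which sets lumbar motor neuron identity and hindlimb nerve pattern, varied more between pools than any other member. In G93A injured pools its signal was 149.5 at 30 min, 389.8 at 4 h, 480.5 at 24 h and 652 at 7 d. In WT injured pools it was 178 at 30 min, 785 at 4 h, 275 at 24 h and 47.1 at 7 d. In G93A sham pools it was 184 at 30 min and 674 at 4 h. In WT sham pools it was 159.8 at 30 min and 1105 at 4 h. All 4 pools at 30 min were low and close together, all 4 at 4 h were higher, and the lowest of all was the WT pool 7 d after injury.

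On the normalized log2 scale, the highest pool stood 9.96-fold above the lowest. Of the 13793 probes tested, 79 (0.573%) had a range at least as wide. The next widest member was Hoxa7, at 5.51-fold, with 360 probes (2.61%) at least as wide. Its high value came from the WT pool 30 min after injury. With a narrower model of the background, the Hoxd10 range was 15.2-fold, which 86 probes (0.624%) reached.

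**Figure D2:**
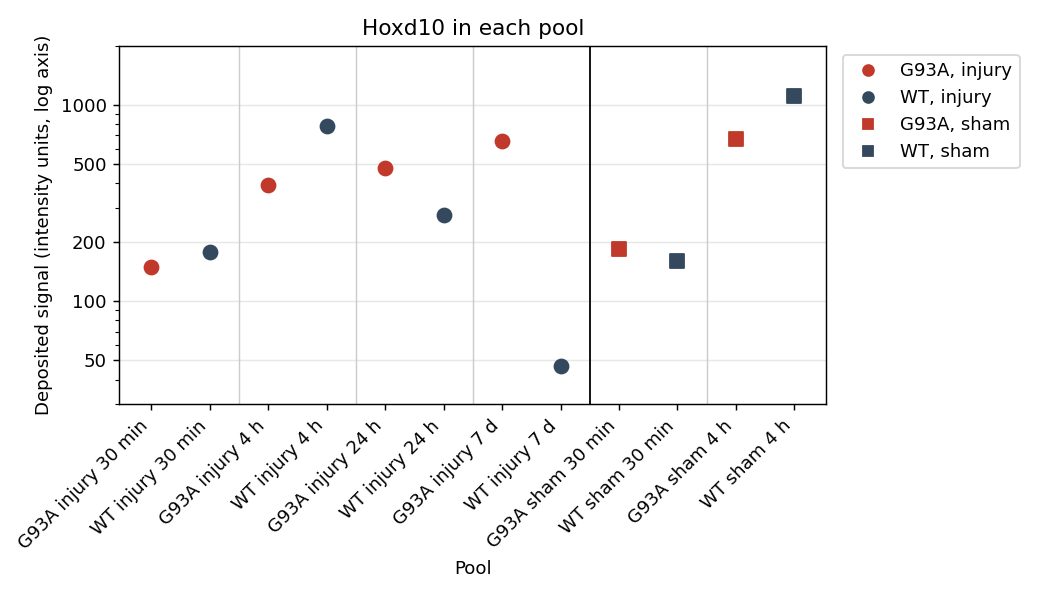
Deposited Hoxd10 signal (log axis) in each of the 12 pools, circles for injury and squares for sham, red for G93A and dark blue for WT. The 4 pools at 30 min lie between 149.5 and 184, the 4 pools at 4 h between 389.8 and 1105, and the WT pool 7 d after injury at 47.1.

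The time of sampling was compared over sham and injured pools of both genotypes, a comparison added after the Hoxd10 values had been seen. All 4 pools at 4 h lay above all 4 at 30 min for Hoxd10, and for 0 of the other 14 members. This order was met by 4.7% of all probes, and by 0.587% together with a mean of at least 2-fold. The mean log2 level of Hoxd10 was 9.30 at 4 h and 7.34 at 30 min, a difference of 1.95 ± 0.47 (SE of the fit). Of all probes, 17 moved at least as far, counting Hoxd10. The limma p was 0.00167 and the adjusted p over all probes 0.0804, so Hoxd10 did not pass. It passed without the WT pool 7 d after injury, at a difference of 1.96, or without its G93A partner. The 7 d pools are not part of this comparison, and either removal leaves 1 pool in that condition. Each also takes the pair in which Hoxd10 differed most out of the estimate of scatter, so these passes are weak support. Hoxd10 also passed without the WT pool 30 min after injury, at a difference of 2.14, or without its G93A partner, at 1.78. Both removals at 30 min leave 1 pool in that condition and raised the calls over all probes, so the passes there are not particular to Hoxd10. The limma adjusted p was 0.361 without the WT sham pool at 4 h, 0.34 without the G93A sham pool at 30 min, 0.321 without the WT injured pool at 4 h and 0.244 without the WT sham pool at 30 min, and 0.087 to 0.124 without any 1 of the other 4 pools. It was 0.255 without the intensity trend. The log2 difference over these leave-outs ran from 1.58 to 2.32. The limma test called 0 members in this comparison, where 3 (Hoxd10, Hoxb4 and Hoxd3) had an unadjusted p under 0.05, and 1.7% of all probes passed.

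The sham pools alone gave a limma difference of 2.36 ± 0.67 on the log2 scale between 4 h and 30 min, with an unadjusted p of 0.00467 and an adjusted p of 0.962. In the sham pools, 0.0508% of probes passed and 0 of 15 members did. The injured pools at 4 h differed from the sham pools at 4 h by -0.72 (limma, adjusted p = 1). Muscle marker genes, 8 on the array with 7 passing the filter, moved in 2 pools that bear on this result. Their summed level was 1836.5 in the WT sham pool at 4 h and 1834 in the WT pool 30 min after injury, against 749 to 969 in the other 10 pools. Neuron markers summed to 41574 in G93A and 43424 in WT sham pools at 4 h, against 44594 in G93A and 43159 in WT sham pools at 30 min. In injured pools they summed to 35345 in G93A and 43310 in WT at 4 h, against 40625 in G93A and 28755 in WT at 30 min. Motor neuron markers in sham pools summed to 4676 in G93A and 4331 in WT at 4 h. At 30 min these sham sums were 4063 in G93A and 3671.5 in WT. In injured pools motor neuron markers summed to 3175 in G93A and 3680 in WT at 4 h, against 3463 and 3517 at 30 min. None of the 9 neuron or 4 motor neuron markers tested passed between 4 h and 30 min, where 1.7% of all probes did. The part of these cell types in the Hoxd10 values was not tested.

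The other members of groups 9 to 13 did not share this order. At 4 h, Hoxb9 had signals of 34.5 in the G93A and 43.6 in the WT injured pool, and 32.1 in the G93A and 39.8 in the WT sham pool. At 30 min it had 38.1 in the G93A and -1.82 in the WT injured pool, and 56.8 in the G93A and 33.7 in the WT sham pool. The ranges overlapped, and the difference was 0.02 on the log2 scale (limma, adjusted p = 0.798). Hoxc9 differed by -0.08 (limma, adjusted p = 0.506) and Hoxd13 by 0.03 (limma, adjusted p = 0.52). Among low-numbered members, Hoxa7 differed by -0.69 (adjusted p = 0.399), Hoxc4 by -0.28 (adjusted p = 0.45), Hoxb4 by -0.13 (adjusted p = 0.392) and Hoxd3 by -0.13 (adjusted p = 0.331). The main normalization compresses dim values. With the narrower background the differences were 0.22 for Hoxb9, -0.38 for Hoxc9 and 0.17 for Hoxd13. They were -0.66 for Hoxa7, -0.31 for Hoxc4, -0.48 for Hoxb4 and -0.52 for Hoxd3. None of these passed the limma test.

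**Figure D3:**
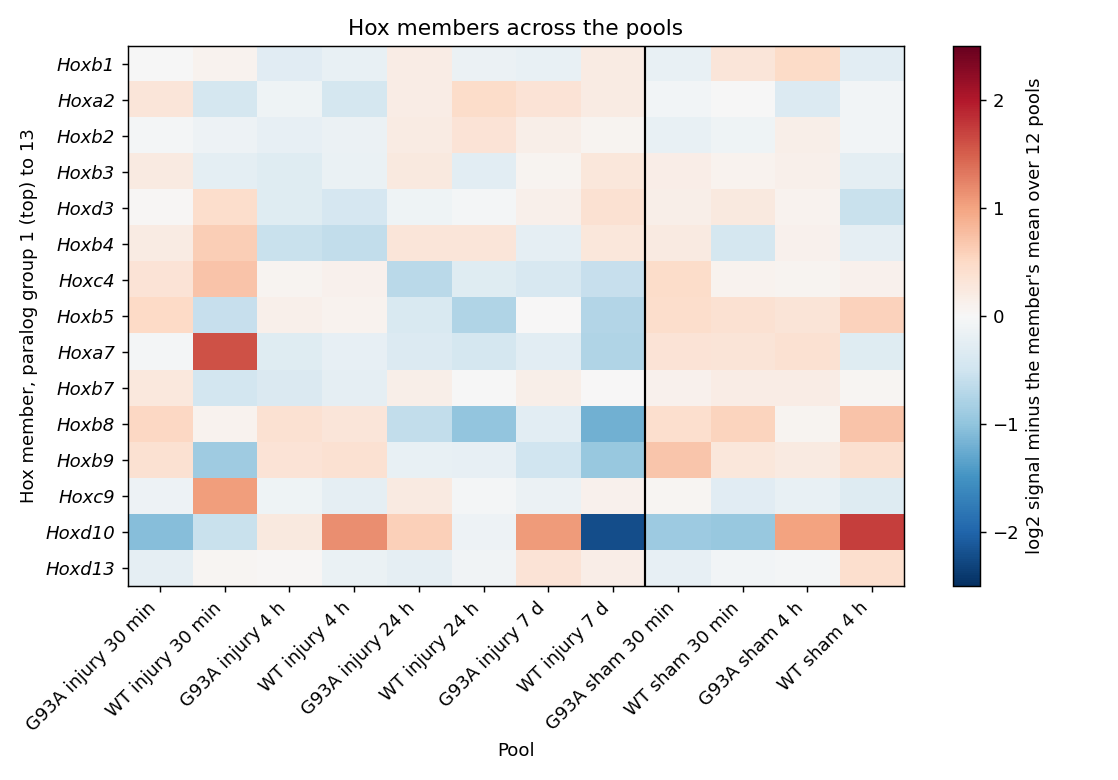
Log2 signal of the 15 Hox members that passed the filter (rows, paralog group 1 at the top to 13), under the narrower background model, minus each member's own mean over 12 pools (columns, injured pools left of the line). Hoxd10 turns from blue at 30 min to red at 4 h, though only pale red in the G93A injured pool. Hoxb5, Hoxb8 and Hoxb9 lie on the blue side at 24 h and 7 d after injury, apart from a near-white Hoxb5 in the G93A pool at 7 d. Hoxb9 at 24 h in both genotypes and Hoxb8 in the G93A pool at 7 d are also pale.

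A level index set the mean of 4 members of groups 9 to 13 against the mean of 8 members of groups 3 to 8, each centred on its own mean. It is a description with no test. In groups 9 to 13, Hoxb9, Hoxc9 and Hoxd13 lay near background. Their SD over the pools was 0.07, 0.08 and 0.03 log2 units, in that order, against 1.08 for Hoxd10. The mean of groups 9 to 13 therefore moved mainly with Hoxd10. The index was -0.48 in the G93A and -0.34 in the WT pool 30 min after injury, and -0.46 in the G93A and -0.44 in the WT sham pool at 30 min. At 4 h it was 0.10 in the G93A and 0.32 in the WT injured pool, and 0.11 in the G93A and 0.34 in the WT sham pool. At 24 h it was 0.32 in the G93A and 0.23 in the WT injured pool, and at 7 d 0.34 in the G93A and -0.04 in the WT injured pool. The index spanned 0.82 log2 units between its lowest and highest pool, and 1.05 with the narrower background.

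The step between 4 h and 30 min was smaller without Hoxd10, but every pool at 4 h still lay above every pool at 30 min. The index then spanned 0.56, and the sham pools stood at -0.14 in G93A and -0.10 in WT at 4 h, against -0.21 in G93A and -0.19 in WT at 30 min. The injured pools stood at 0.06 in G93A and 0.03 in WT at 4 h, against -0.21 in G93A and -0.15 in WT at 30 min. The highest value without Hoxd10 was 0.35, in the WT pool 7 d after injury, where the mean of the low-numbered members was -0.37. The remaining high-numbered members, Hoxb9, Hoxc9 and Hoxd13, lay near background and varied little under the main normalization. Without Hoxd10 the index therefore moved mainly with the low-numbered members. Their mean ran from -0.05 to 0.13 in the pools at 4 h and from 0.19 to 0.23 in those at 30 min. A different cord level and a different level of Hoxd10 per cell at one cord level cannot be told apart in these pools. No second member of group 10 and none of group 11 was on the array.

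**Figure D4:**
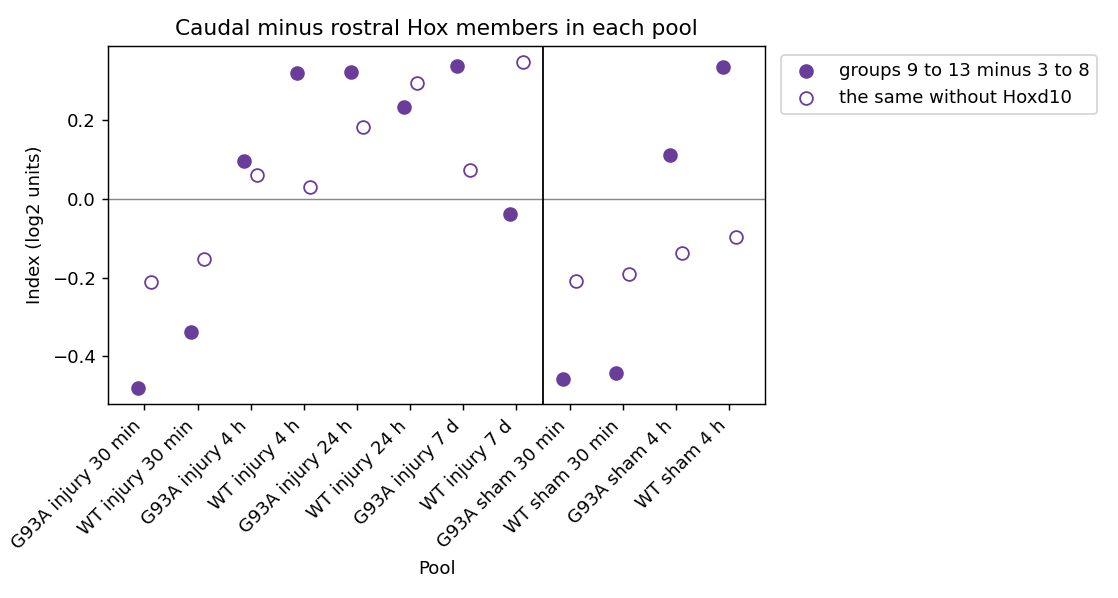
Index of cord level in each pool, the mean centred log2 of Hox groups 9 to 13 minus that of groups 3 to 8 (filled), and the same without Hoxd10 (open). The filled points lie between -0.48 and -0.34 in the 4 pools at 30 min, and the open points of the sham pools lie between -0.21 and -0.10.

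Between the genotypes, 0 of 15 members passed the limma test over 6 pairs of pools, where 0% of all probes did, and 0 members and 316 probes had an unadjusted p under 0.05. No member differed in the same direction in all 6 pairs, as 2.15% of probes did. The test of whether injury changed the genotype difference called 0 members and 0% of probes. Hoxb8 alone had an unadjusted p under 0.05 there (0.00959, adjusted p = 0.948).

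Single pairs differed far more for Hoxd10 than the mean did. At 7 d after injury its normalized level was 6.10-fold higher in the G93A pool than in the WT pool, the widest difference of all 13793 probes in that pair. With the narrower background it was 9.62-fold higher, and 3 probes, counting Hoxd10, differed at least as far. The ratio of the deposited signals was 13.9. At 24 h it was 1.75-fold higher in the G93A pool. At 4 h it was lower in the G93A pool, by -1.01 after injury and by -0.75 after sham surgery on the log2 scale. At 30 min the log2 differences were -0.38 after injury and 0.04 after sham surgery. The direction thus turned between pairs, and the limma difference over 6 pairs was 0.22 ± 0.38 (adjusted p = 0.979).

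A difference of at least 2-fold was met by 1 member at 7 d, where 0.841% of probes met it, and by 1 at 4 h after injury, where 0.232% did. Both were Hoxd10, whose fold at 4 h after injury was 0.53 with the narrower background, short of 2-fold. At 30 min after injury 2 members met it, Hoxa7 and Hoxb5, where 7.71% of probes did. With the narrower background Hoxc9 and Hoxb9, which was not detected in the WT pool, also met it there. In that setting 2220 of 13793 probes differed at least as far as Hoxb5, which was 2.11-fold higher in the G93A pool. No member met it in the pairs at 24 h (0.421% of probes), sham 30 min (0.0435%) or sham 4 h (0.116%).

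The pools of the 7 d pair also differed in cell type markers. Neuron markers, 9 of 10 on the array and all 9 passing the filter, summed to 22433 in the G93A and 11799 in the WT pool. Motor neuron markers, 4 of 6 on the array, summed to 3993 in the G93A and 2077 in the WT pool. Fibroblast and meninges markers, 5 of 6 on the array, summed to 13963 in the G93A and 26381 in the WT pool. The part of these cell types in the Hoxd10 difference was not tested.

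In that pair Hoxb8 was 2674 in the G93A pool and 1340.2 in the WT pool, and Hoxb5 was 827 in the G93A pool and 478 in the WT pool. The thoracic member Hoxc9 was 22.3 in the G93A pool and 24.1 in the WT pool. The upper trunk member Hoxb7 was 1115 in the G93A and 1016 in the WT pool. The signals of these 4 members differed less than 2-fold in the pair, and their difference from Hoxd10 was not tested.

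A few trunk members were lower at the late times after injury. Both times were set against the mean of all 4 sham pools, since sham surgery was sampled at 30 min and 4 h, so injury and time after surgery cannot be told apart here. Of 15 members, 2 were lower at 24 h (13.3%) and 3 at 7 d (20%), and 0 were higher at either time. Of all probes, 9.37% were lower at 24 h and 9.63% at 7 d, so the share at 24 h was near the background and that at 7 d rested on 3 members. Without the WT pool 30 min after injury or its G93A partner, more members passed at each time, and the calls over all probes also rose at each time. Without the WT pool of the same time, no member kept its call at 24 h or at 7 d, and the calls over all probes also fell. That removal leaves 1 pool in the condition, so the loss is not particular to the Hox members. At 24 h 1 passed without the G93A pool of that time, the WT sham pool at 30 min or the WT sham pool at 4 h. At 7 d 1 passed without the WT sham pool at 4 h or the G93A sham pool at 30 min. The median log2 difference of the members was -0.03 at 24 h and -0.01 at 7 d, against -0.01 over all probes at both times.

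Hoxb8 was 2191 in the G93A and 1678 in the WT pool 24 h after injury, and 2674 in the G93A and 1340.2 in the WT pool at 7 d. In sham pools it was 4278 at 30 min and 3424 at 4 h in G93A, and 4799 at 30 min and 5329 at 4 h in WT. All 4 late injured pools lay below all 4 sham pools. By normalized values, 29.8% of all probes also lay below all 4 sham pools at 24 h, and 29.8% at 7 d. The log2 difference of Hoxb8 was -1.26 ± 0.26 at 24 h (limma, adjusted p = 0.0078) and -1.20 ± 0.26 at 7 d (limma, adjusted p = 0.00875). The call at 24 h was lost without the WT pool at 24 h (-1.14, adjusted p = 0.136), and the call at 7 d without the WT pool at 7 d (-0.72, adjusted p = 0.236).

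Hoxb5, which acts in the neck and upper trunk and in neural crest, was 637 in the G93A and 499 in the WT pool at 24 h, and 827 in the G93A and 478 in the WT pool at 7 d. In sham pools it was 1210.0 at 30 min and 1082 at 4 h in G93A, and 1137 at 30 min and 1298 at 4 h in WT. Again the late injured pools lay below every sham pool. The log2 difference was -1.07 ± 0.27 at 24 h (limma, adjusted p = 0.0188) and -0.84 ± 0.27 at 7 d (limma, adjusted p = 0.0484). At 24 h the call was lost without either pool of that time or either WT sham pool, with adjusted p from 0.0691 to 0.19. At 7 d it was lost without any 1 of 9 pools, with adjusted p from 0.0632 to 0.469.

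Hoxb9, a member of the thoracic group, was 13.6 in the G93A and 11.8 in the WT pool at 24 h, and 10.4 in the G93A and -1.61 in the WT pool at 7 d. In sham pools it was 56.8 at 30 min and 32.1 at 4 h in G93A, and 33.7 at 30 min and 39.8 at 4 h in WT. It was detected in the G93A but not the WT pool at 7 d. Its log2 difference at 7 d was -0.15 ± 0.04 (limma, adjusted p = 0.0218), and -1.12 ± 0.28 with the narrower background (limma, adjusted p = 0.0153). This call was lost without the WT pool (adjusted p = 0.23) or the G93A pool at 7 d (adjusted p = 0.105). It was also lost without the WT sham pool at 4 h (adjusted p = 0.0823) or the G93A sham pool at 30 min (adjusted p = 0.0703). At 24 h the difference was -0.09 (limma, adjusted p = 0.14).

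**Figure D5:**
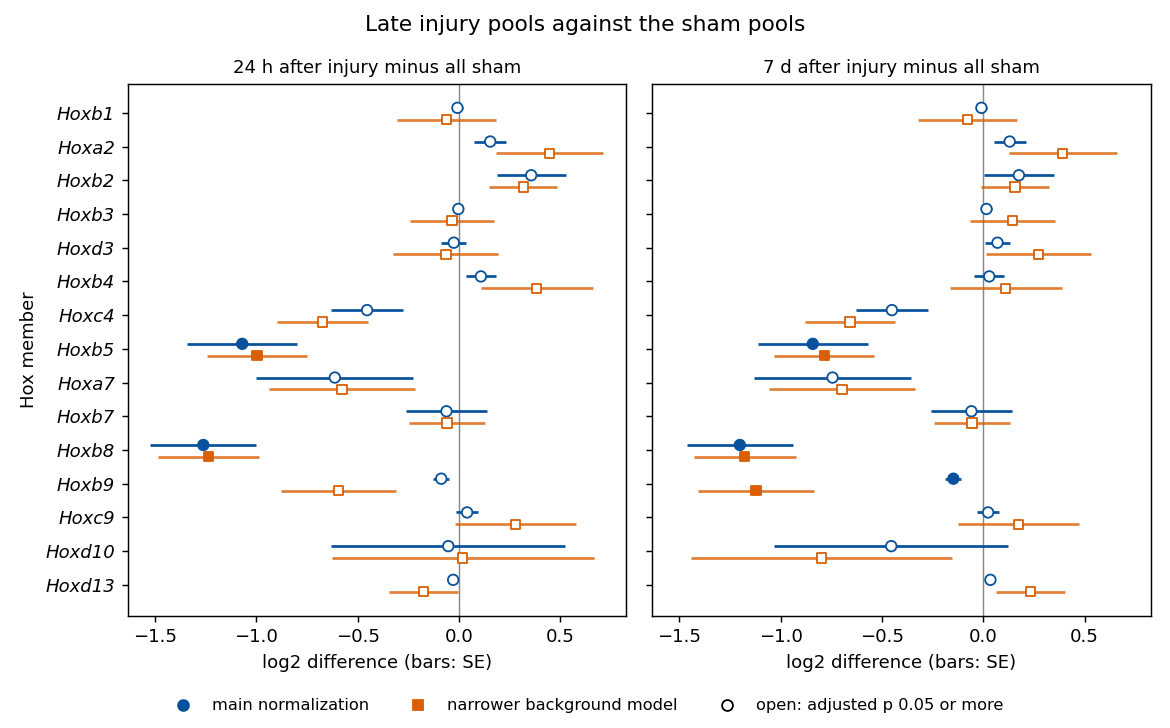
Log2 difference of injured pools at 24 h (left) and 7 d (right) from the mean of the 4 sham pools for the 15 Hox members, with bars of 1 SE of the limma fit; blue circles for the main normalization, orange squares for the narrower background model, filled where the adjusted p is under 0.05. Hoxb8 and Hoxb5 are filled at both times and Hoxb9 at 7 d, all left of 0.

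Members that did not pass lay on both sides. Hoxc4, a neck-level member, was 90.9 in the G93A and 121 in the WT pool at 24 h, and 124 in the G93A and 99.4 in the WT pool at 7 d. Its sham pools held 267 at 30 min and 189 at 4 h in G93A, and 185 at 30 min and 188 at 4 h in WT. The late injured pools were below every sham pool, with limma differences of -0.45 ± 0.18 at 24 h (adjusted p = 0.0952) and -0.45 ± 0.18 at 7 d (adjusted p = 0.0988). Hoxa7 differed by -0.61 at 24 h (limma, adjusted p = 0.297) and by -0.74 at 7 d (adjusted p = 0.209). Hoxb2 differed by 0.36 at 24 h (limma, adjusted p = 0.167), with signals of 466 in the G93A and 523 in the WT pool against 390.4 to 473 in sham pools. Hoxd10 differed by -0.05 at 24 h (limma, adjusted p = 0.962) and by -0.45 at 7 d (adjusted p = 0.641).

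By non-overlap alone, normalized values of 5 members lay below all sham pools at 24 h, where 29.8% of probes did, and of 3 above, where 26.3% did. At 7 d these were 4 members below (29.8% of probes) and 1 above (24%). The 3 above at 24 h were Hoxa2, Hoxb2 and Hoxb4, and the 1 above at 7 d was Hoxa2. These shares of 15 stood near or below the background.

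Markers of several cell types, though not of all, also differed at the late times. Of 9 neuron markers tested, 4 were lower at 24 h and 8 at 7 d, where 9.37% and 9.63% of all probes were lower. Their summed level was 27479 in the G93A and 22298 in the WT pool at 24 h, and 22433 in the G93A and 11799 in the WT pool at 7 d, against 41574 to 44594 in sham pools. All 5 oligodendrocyte markers tested were lower at 24 h and 3 at 7 d. Of 5 microglia and macrophage markers, 3 were higher at 24 h and 5 at 7 d. All 5 fibroblast and meninges markers were higher at 7 d, and 0 at 24 h. Of all probes, 11.4% were higher at each time. Of 4 astrocyte markers tested, 2 were lower at 24 h and 3 at 7 d. Of 5 interneuron markers tested, 3 were lower at 24 h and 5 at 7 d. Of 4 motor neuron markers tested, 0 passed at 24 h and 1 was lower at 7 d. No ependymal or endothelial marker passed at either time. The part of these shifts in the lower Hoxb8, Hoxb5 and Hoxb9 signals was not tested.

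Within the first hours injury called no member. At 30 min, 0 of 15 members passed in limma against 0.138% of probes, and Hoxb9 had an unadjusted p of 0.0452. Without the G93A pool 30 min after injury, which leaves the WT pool that stood apart, 6 members passed and 4202 of 13622 probes did. At 4 h, 0 members passed in limma against 0.551% of probes, and 0 had an unadjusted p under 0.05.

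Of 5 Hox cofactors tested, which bind DNA beside Hox proteins, Meis2 was lower at 7 d, by -0.77 ± 0.25 (limma, adjusted p = 0.0473). At that time 9.63% of all probes were lower. Meis2 signals were 71.2 in the G93A and 28.0 in the WT pool, against 141 to 256 in sham pools. The list had 0 calls at 24 h and a median log2 difference of 0.01 at 7 d, against -0.01 over all probes.

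Of 15 regulators of Hox chromatin tested, 1 passed at 4 h after injury, where 0.551% of all probes did, 1 between 4 h and 30 min, where 1.7% did, and 1 at 24 h, where 20.8% did. Kdm6b, a demethylase of the repressive mark H3K27me3, was higher at 4 h after injury than after sham surgery by 1.47 ± 0.24 (limma, adjusted p = 0.0263). It was also higher at 4 h than at 30 min by 1.29 ± 0.17 (limma, adjusted p = 0.00277). Cbx7, a Polycomb reader of the same mark, was lower at 24 h by -0.92 ± 0.23 (limma, adjusted p = 0.0166). The list's median log2 difference was 0.05 after injury at 4 h and 0.03 at 24 h, against -0.01 over all probes at both times.

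Of 8 axial patterning regulators tested, Aldh1a1, an enzyme that makes retinoic acid, was lower at 24 h by -0.59 ± 0.16 (limma, adjusted p = 0.025). Aldh1a2, a second such enzyme that limb-level motor neurons also use, was higher at 7 d by 0.39 ± 0.11 (limma, adjusted p = 0.0335). Cdx4, Fgf8 and Wnt3a were detected on 0 arrays. The axial list's median log2 difference was 0.02 at 24 h and -0.01 at 7 d. Of 8 markers of limb-level and body-level motor columns tested, 1 was higher and 1 lower at 24 h, and 3 were higher at 7 d, with medians of -0.01 at 24 h and -0.03 at 7 d. Of all probes, 11.4% were higher and 9.37% lower at 24 h, and 11.4% were higher at 7 d. Foxp1, which works with Hox proteins in limb motor neurons, was higher by 0.96 ± 0.17 at 24 h (limma, adjusted p = 0.00344) and by 0.56 ± 0.17 at 7 d (adjusted p = 0.0383).

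Of 13 genes tested that flank the Hox clusters, 3 were lower and 1 higher at 24 h, where 9.37% of all probes were lower and 11.4% higher. At 7 d 5 were lower and 1 higher, where 9.63% of all probes were lower and 11.4% higher. Their median log2 difference was -0.14 at 24 h and -0.23 at 7 d, against -0.01 over all probes at both times. Beside the HoxA cluster, Hnrnpa2b1, an RNA-binding protein, was lower by -1.31 ± 0.31 at 24 h (limma, adjusted p = 0.0148). Snx10, a sorting nexin, was lower by -1.45 ± 0.31 at 24 h (limma, adjusted p = 0.00913). Skap2, an adaptor protein of immune cells, was higher by 0.77 ± 0.18 at 24 h (limma, adjusted p = 0.0123) and by 1.65 ± 0.18 at 7 d (adjusted p = 0.000114). Beside the HoxD cluster, Lnpk, which shapes the endoplasmic reticulum, was lower at 7 d by -0.95 ± 0.29 (limma, adjusted p = 0.0401).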

How the data were processed

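The authors deposited intensity values (bead-average signals) for 22226 probes on 12 arrays, and the submitters' processing notes name BeadStudio 3.2.6. Per the file headers, a detection p-value stands beside each. Values are background-subtracted, since 21% to 28.6% of an array lie below 0. The series matrix holds a straight line of the same signals.

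Identifiers were sorted and joined to the value rows. The authors do not state this pairing; the values themselves led to it. It was checked by silent and active gene families, including a local check added after the Hoxd10 values were seen. Array symbols were kept. The accession of 19 of the 21 members named the same gene in RefSeq; those of Hoxb1 and Hoxb2 matched none, and their gene identifiers named them.

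Normalization used neqc (offset 16, quantile) from limma 3.58.1 under R 4.3.3. One limma fit over 13793 probes (detection p under 0.05 on at least 2 arrays) held 6 conditions and genotype, with trend, 5 residual degrees of freedom (4 for the interaction) and Benjamini-Hochberg adjustment at 0.05. The background SD that neqc estimated was 81.4 to 134, against 4.16 to 12.1 from the quantiles of detection p, so neqc compresses dim values. The narrower background uses the second estimate. Members and lists were chosen with earlier results of these data known. Where a list gene had several probes, the brightest stood for it. Every member was named; other genes were named from the lists when called, up to 4 per list, and others after their values were seen. Alternatives changed the pairing, filter, normalization and pools left out. The number of arrays limits the precision.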

Additional observations from a re-analysis of the deposited data

Results flagged for a closer look

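Among the 6 pools of one genotype, 3 of 30 member-by-genotype sets held a pool far from the others by Dixon's ratio of gap to range. The threshold gives about 1 in 20 for like replicates. These 6 pools are different conditions, so that rate does not apply here. A stray pool and a difference between conditions cannot be told apart. Hoxc9 in the WT pool 30 min after injury was the highest of 6 WT pools, with a ratio of 0.783. Its log2 level was 6.81, and that of the next WT pool 6.59. Hoxb7 in the G93A pool 4 h after injury was the lowest of 6 G93A pools, with a ratio of 0.746 and log2 levels of 9.61 and, for the next pool, 10.10. Hoxb3 in the same pool was the lowest of 6, with a ratio of 0.64 and log2 levels of 6.48 and 6.51. Hoxb3 is near background there.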

How the results depend on the processing

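The fit sets the G93A and WT pools of each condition against each other, so the genotype comparison is paired by condition. No paired analysis was possible by replicate number because the labels give no replicate numbers on which a further block could rest. The number of detected members was 15 and ranged from 13 to 21 over the alternatives. The 114 alternative values of single members all kept their direction, 24 lost the threshold and 4, all of Hoxd10, gained it. The count called at 24 h was 2, 5 with the identifiers as deposited, and 0 to 5 when 1 pool was left out. The count at 7 d was 3, 1 without the filter on dim probes, 1 without the intensity trend, and 0 to 5 when 1 pool was left out. At 24 h the call of Hoxb5 was lost without the trend (adjusted p = 0.0577). At 7 d the calls of Hoxb5 and Hoxb9 were lost without the filter (0.1 and 0.0589) and without the trend (0.107 and 0.0743). At 30 min after injury the count was 0, and 0 to 6 with 1 pool left out; between 4 h and 30 min it was 0, and 0 to 6. Leaving out either pool of the pair at 30 min after injury also raised the calls over all probes. It did so at 24 h, at 7 d, at 30 min after injury and between 4 h and 30 min. The index range was 0.82, and 1.54 with groups 10 to 13 set against 3 to 9, where Hoxd10 is 1 of 2 caudal members. It was 0.80 to 1.03 with 1 pool left out. The cause of these moves was not tested. Counts for genotype, its change with injury, sham time and injury at 4 h were 0 under each alternative run. Hoxb1, Hoxb3, Hoxb9, Hoxc9 and Hoxd13 lay near background, where the signal limits any difference.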
